A study of Mus musculus with 18 samples.

Results

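The microRNAs described here are the products of the miR-199 and miR-214 hairpins, which lie inside the 3 dynamin genes of the mouse. They were taken by name from the deposited table of 18 small RNA libraries of C2C12, a mouse myoblast cell line. The 4 names are mmu-miR-199a-5p, mmu-miR-199a-3p, mmu-miR-199b-3p and mmu-miR-214-3p (the prefix marks the mouse and is mostly left out below), out of 2042 names in the table. All 4 had reads and passed the filter on low counts in every comparison. In the fit of the eluates, miR-214-3p passed it through the MRTF-A eluates alone. They were chosen by the measured recovery of the 2 miR-199a arms in the pulldown, which went opposite ways. Within a state, every comparison of an eluate with another kind of library is therefore a description below and carries no test. Comparisons between differentiated and undifferentiated cells were not used in that choice and were tested. These include tests of whether recovery over the control or over input differed between the states, which are built from the same libraries. The table holds 2 further names of these hairpins, miR-214-5p and miR-199b-5p, which are given for comparison.

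The libraries came from miTRAP, in which an RNA fused to MS2 hairpins is immobilised and the small RNAs that come down with it are sequenced. There were 6 groups of 3 libraries. The groups are eluates of a bait made of the MRTF-A 3′UTR from cells differentiated for 7 days in 2% horse serum and from undifferentiated cells grown in 10% fetal calf serum, eluates of the MS2 control from the same 2 states, and input RNA from the same 2 states. The 7-day treatment text also stands on the undifferentiated samples, so the state was read from the titles. All groups come from 1 cell line, and the labels do not say whether the 3 libraries of 1 group stem from separate cultures, so the spread behind each p-value may be a technical one. The labels do not give the species or the ends of the bait sequence. Libraries within a group are called A, B and C. These letters follow the table's columns, and the labels tie them to no shared culture or day.

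A miRNA hairpin is cut into 2 arms, called 5p and 3p for the end of the hairpin they come from, and the loaded arm guides the silencing complex to mRNAs that pair with its seed, bases 2 to 8. miR-199a and miR-214 are known from mesenchymal tissue and from skeletal muscle, where the transcript Dnm3os, read from the strand opposite to Dnm3, carries both. In mouse muscle cells miR-214 is known as a brake on the Polycomb subunit Ezh2. The bait comes from Mrtfa, which encodes a coactivator of serum response factor that responds to the state of actin.

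The mature sequences are shown with the seed in capitals because the 2 arms of miR-199 and the miR-214 arms have 4 different seeds, while miR-199a-3p and miR-199b-3p are one and the same sequence. They are from RefSeq on GRCm38.p6, and all 4 member names matched.
miR-199a-5p: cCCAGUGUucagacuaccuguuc
miR-199a-3p: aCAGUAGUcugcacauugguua
miR-199b-3p: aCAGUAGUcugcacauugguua
miR-214-3p: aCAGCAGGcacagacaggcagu
miR-214-5p: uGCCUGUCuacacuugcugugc

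Each of the 3 miR-199 hairpins is intronic in a dynamin gene and lies on the strand opposite to it. Mir199a-2 lies at chr1:162217814-162217923 on the plus strand, within an intron of Dnm3 and within an exon of Dnm3os. Mir214 follows 5445 bases further on at chr1:162223368-162223477, also in Dnm3os. Mir199a-1 lies at chr9:21496495-21496564 on the minus strand, opposite to Dnm2, and Mir199b at chr2:32318460-32318569 on the plus strand, opposite to Dnm1. Mature miR-199a-5p lies at chr1:162217844-162217866 and chr9:21496537-21496559, and the 3p sequence at chr1:162217883-162217904, chr9:21496498-21496519 and chr2:32318524-32318545. Mature miR-214-3p lies at chr1:162223438-162223459.

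Because the 3p sequence is shared, its 2 names cannot be told apart by sequence, and the table divides them almost evenly. The miR-199b-3p name held 45.3% to 62.1% of the shared reads, with a median of 49.9%, and the 95% Wilson interval held 50% in all 18 libraries. The names miR-199a-3p and miR-199b-3p are therefore 1 measurement under 2 labels here, not 2 members that move alike. The 5p arms are counted under 2 names, miR-199a-5p and miR-199b-5p, and the first of these is shared by Mir199a-1 and Mir199a-2. The sequence of miR-199b-5p was not at hand. Whether reads of 1 name were counted under the other was not tested. miR-199b-5p had 51 of 39246 miR-199 5p reads in the MRTF-A eluates (0.130%, exact 95% interval 0.0968% to 0.171%), 0 of 105 in the MS2 control eluates, where 3 reads would be a share of 2.86% and the exact upper limit is 3.45%, and 5 of 1722 in the inputs (0.290%, 0.0943% to 0.676%).

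Depth differed by kind of library. The MRTF-A eluates held 107165 to 544504 recovered reads per library, the MS2 control eluates 15562 to 39695 and the inputs 294112 to 860828, so 1 read is worth 3.33 to 15.3, 11.9 to 34.3 and 1.66 to 3.05 CPM (the authors' unit, reads scaled to a common library size) in these 3 kinds. The authors' scaling factors were 0.341 to 0.634, 1.24 to 2.37 and 0.701 to 1.48, so a level set across kinds of library depends on that scaling, and ratios within a library do not. Human-named miRNAs took 0.0900% to 0.930% of the reads in the MS2 control libraries, above 0.5% in 3 of these 6 libraries. In the inputs, 5 miRNAs that mark striated muscle summed to 38898 to 57303 CPM in differentiated cells and to 225 to 1389 CPM in undifferentiated cells, where miR-1a-3p, miR-208b-3p and miR-499-5p had 0 reads. Markers of blood (4 of 5 names in the table) summed to at most 4.30 CPM and endothelial markers to at most 3.05 CPM. Epithelial markers reached 85.3 CPM, and neural markers 947 to 2568 CPM with miR-124-3p at 0 reads.

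mmu-miR-199a-5p was among the most abundant miRNAs recovered with the MRTF-A bait and lower elsewhere. It stood at 47124, 45393 and 44920 CPM in the differentiated MRTF-A eluates and at 12709.8, 25570.3 and 26719 CPM in the undifferentiated ones. In the MS2 control eluates it stood at 830.2, 755 and 921 CPM in differentiated cells and at 197, 131 and 149 CPM in undifferentiated cells. The inputs held 481, 492 and 374 CPM in differentiated cells and 609, 514 and 1050.3 CPM in undifferentiated cells. No MRTF-A eluate overlaps with any control eluate or input, and the lowest of the 6, library A of the undifferentiated cells, is still above all 12 other libraries. The names were chosen by this recovery. How many of all names separate as fully, here or for the members below, was not counted. As a share of a library's reads, which uses no scaling factor, it made up 2.61%, 2.50% and 2.85% in the differentiated and 0.774%, 0.873% and 1.503% in the undifferentiated MRTF-A eluates. Its rank there was 7 to 9 in differentiated and 9 to 12 in undifferentiated cells. In the MS2 control eluates it ranked 30 to 37 in differentiated and 69 to 92 in undifferentiated cells, and in the inputs 72 to 94.

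The 3p arm of the same hairpin had the opposite distribution. mmu-miR-199a-3p stood at 353, 383 and 257 CPM in the differentiated MRTF-A eluates and at 169, 241 and 403 CPM in the undifferentiated ones. The MS2 control eluates held 7372, 7931 and 9261 CPM in differentiated cells and 5546, 1792 and 4248 CPM in undifferentiated cells. The inputs held 5699, 6708 and 4424 CPM in differentiated cells and 5768, 5690.2 and 9108 CPM in undifferentiated cells. All 6 MRTF-A eluates lie below all 12 other libraries, and the share of all names that do so was not counted. The MS2 control libraries of differentiated cells lie above the inputs of that state, and over both states MS2 and input libraries overlap. In the differentiated MS2 control eluates miR-199a-3p ranked 5 or 6 among all names. The shared 3p sequence under both names averaged 663 ± 117 and 597 ± 247 CPM in the differentiated and undifferentiated MRTF-A eluates, 15443 ± 1993 and 7534 ± 3604 CPM in the MS2 control eluates, and 11219 ± 2206 and 13803 ± 3702 CPM in the inputs (SD, n = 3 each). The name miR-199b-3p alone ranged over 273 to 366 and 224 to 479 CPM in the differentiated and undifferentiated MRTF-A eluates, 6110.0 to 8205 and 1697 to 4857 CPM in the MS2 control eluates, and 4452 to 6548 and 5835 to 8969 CPM in the inputs.

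**Figure D1:**
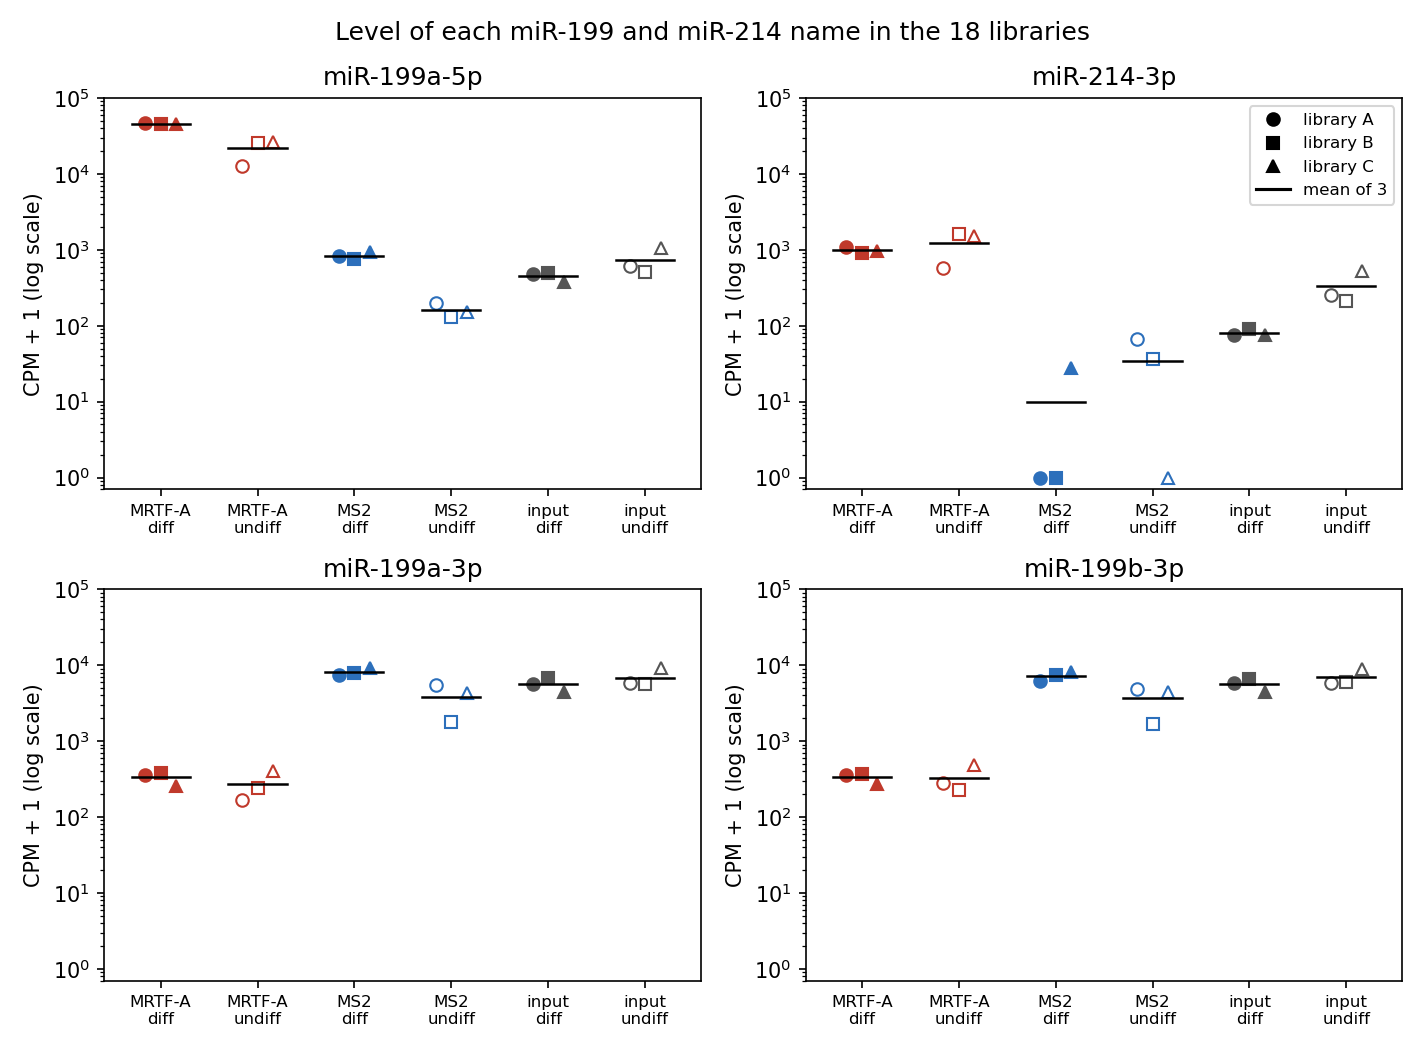
Level of each member name in the 18 libraries, as CPM + 1 on a log axis. Points are single libraries (circle A, square B, triangle C), filled for differentiated and open for undifferentiated cells, and black bars are the mean of 3. miR-199a-5p is highest in the 6 MRTF-A eluates (12709.8 to 47124 CPM) and the 2 names of the 3p sequence are lowest there. miR-214-3p had 0 reads in 3 of 6 MS2 control libraries.

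mmu-miR-214-3p, the arm known to act on Ezh2, was scarce in the cells. Like miR-199a-5p, it was concentrated in the MRTF-A eluates. It stood at 1094, 909.5 and 957 CPM in the differentiated MRTF-A eluates (251, 273 and 186 reads) and at 567, 1603 and 1512 CPM in the undifferentiated ones (37, 193 and 120 reads). The MS2 control eluates held 0, 0 and 1 read in differentiated cells and 2, 3 and 0 reads in undifferentiated cells. The inputs held 75.3, 90.2 and 75.3 CPM in differentiated cells and 249.7, 211 and 524 CPM in undifferentiated cells. The MRTF-A eluates of both states lie above all other libraries, with the lowest, 567 CPM, close to the highest input, 524 CPM. The order is that of the authors' scale: as a share of reads the undifferentiated MRTF-A library A held 0.0345% and the undifferentiated input library C 0.0367%. With so few control reads the ratio is loosely fixed. From pooled reads over effective library sizes, the MRTF-A eluates held 94.3 times the MS2 level in differentiated cells (710 against 1 read, counting interval 16.9 to 3730) and 42.7 times in undifferentiated cells (350 against 5 reads, 18.1 to 132). These intervals, like the others, cover counting error only, since reads are not independent molecules.

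The fitted differences put numbers to this pattern on the authors' scale, as log2(CPM + 10). In the MRTF-A eluates over the MS2 control, miR-199a-5p was at 5.76 ± 0.31 in differentiated and 6.95 ± 0.31 in undifferentiated cells (log2 fold change ± SE, 3 libraries per group). miR-199a-3p was at −4.60 ± 0.43 and −3.72 ± 0.43, and miR-214-3p at 6.0 ± 0.77 and 5.11 ± 0.77. miR-199b-3p, the same sequence as miR-199a-3p, was at −4.41 ± 0.41 and −3.38 ± 0.41. The median of all 169 miRNAs in that fit was 2.37 in differentiated and 1.16 in undifferentiated cells, and with library totals 1.18 and −0.25. With library totals, which replace the authors' factors, miR-199a-5p came to 4.32 and 5.09, miR-199a-3p to −6.02 and −5.56, and miR-214-3p to 4.89 and 3.62, so the signs are the same on both scales and the sizes are not.

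Against input the picture had the same signs for the MRTF-A eluates. miR-199a-5p was at 6.65 ± 0.33 in differentiated and 4.88 ± 0.33 in undifferentiated cells, miR-199a-3p at −4.04 ± 0.40 and −4.66 ± 0.40, and miR-214-3p at 3.47 ± 0.68 and 1.84 ± 0.68, where all tested miRNAs had medians of −0.14 and −1.04. The other arm of that hairpin, miR-214-5p, stood below input, at −1.81 ± 0.55 and −4.18 ± 0.55, with 8, 8 and 4 reads in the differentiated and 0, 2 and 1 reads in the undifferentiated MRTF-A eluates. The scarce name miR-199b-5p was also more abundant in the MRTF-A eluates than in the inputs. miR-199b-5p had 14, 15 and 12 reads in the differentiated and 3, 2 and 5 reads in the undifferentiated MRTF-A eluates, no read in the 6 MS2 control libraries, and 1, 1 and 2 reads in the differentiated and 1, 0 and 0 reads in the undifferentiated inputs. From pooled reads its level over input was 21.8-fold in differentiated (counting interval 7.91 to 83.9) and 48.8-fold in undifferentiated cells (6.94 to 2120). The depth of the MS2 controls sets no useful bound for it. Of all miR-199 5p reads, miR-199b-5p held 0.130% in the MRTF-A eluates and 0.290% in the inputs. Its excess over input thus went along with that of miR-199a-5p. Whether reads of miR-199a-5p were counted under miR-199b-5p was not tested.

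The MS2 control eluates were closer to input than the MRTF-A eluates for both arms of miR-199a, and below input for miR-214-3p. Over input they stood at 0.89 ± 0.33 in differentiated and −2.07 ± 0.33 in undifferentiated cells for miR-199a-5p, at 0.56 ± 0.40 and −0.94 ± 0.40 for miR-199a-3p, and at −2.54 ± 0.68 and −3.26 ± 0.68 for miR-214-3p. The medians of all tested miRNAs were −1.58 and −2.19. The undifferentiated value of miR-199a-3p has no stable sign, since library totals gave 0.032.

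Within a library, the ratio of the arms needs no scaling, and it turned over between the kinds of library. miR-199a-5p exceeded miR-199a-3p by 118 to 175 times in the differentiated and by 66.3 to 106 times in the undifferentiated MRTF-A eluates. In the MS2 control eluates the 3p arm was in excess, by 8.88 to 10.5 times in differentiated and by 13.7 to 28.4 times in undifferentiated cells. It was likewise in excess in the inputs, by 11.8 to 13.6 times in differentiated and by 8.67 to 11.1 times in undifferentiated cells. With the reads of both 3p names summed, the 5p arm led by 60.6 to 84.8 times and 28.6 to 55.0 times in the MRTF-A eluates, while the 3p arm led by 16.2 to 20.4 times and 26.7 to 58.3 times in the MS2 control and by 23.7 to 26.9 times and 17.2 to 22.8 times in the inputs (differentiated and then undifferentiated cells in each case). Counted this way, the inputs held more 3p than 5p reads in all 6 libraries.

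The balance of the miR-214 arms shifted as well, from nearly even in the inputs to a large excess of 3p in the MRTF-A eluates. The order of the arms did not turn over throughout. Undifferentiated input libraries B and C already held more 3p than 5p reads (76 against 70 and 316 against 255). miR-214-3p exceeded miR-214-5p by 31.4 to 46.5 times in the differentiated MRTF-A eluates and by 96.5 and 120 times in libraries B and C of the undifferentiated ones, while library A had 37 reads against 0. In the inputs the ratio of 3p to 5p was 0.554 to 0.833 in differentiated and 0.636 to 1.24 in undifferentiated cells, so neither arm exceeded the other by more than 1.80 times there.

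**Figure D2:**
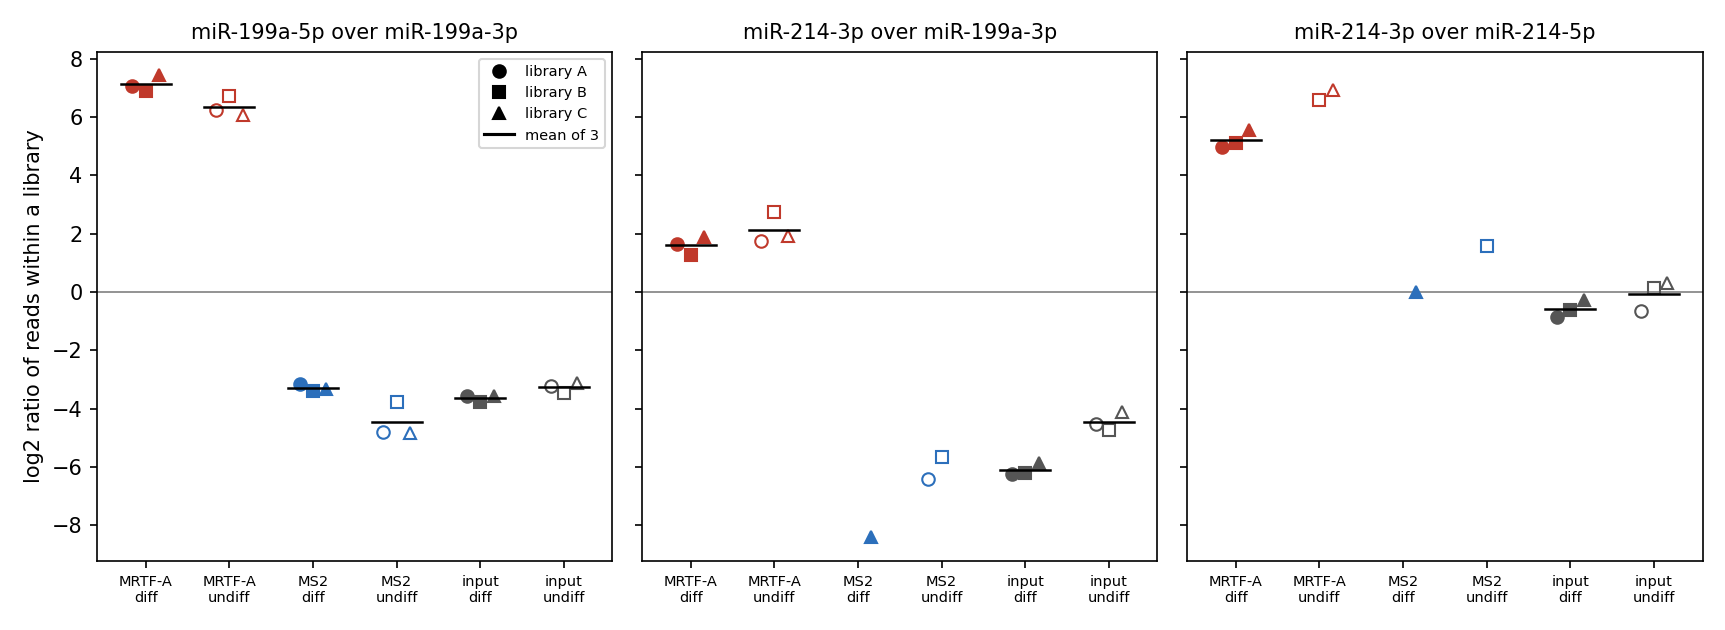
Log2 ratio of reads within each library, for miR-199a-5p over miR-199a-3p (left), miR-214-3p over miR-199a-3p (middle) and miR-214-3p over miR-214-5p (right). Points are single libraries as in the plot of levels, black bars are the mean of 3, a library with no read for one of the names has no point, and a group with such a library has no bar. All plotted MRTF-A eluates lie above 0 and the inputs lie below or near it, with miR-199a at 7.13 ± 0.29 in differentiated MRTF-A eluates and −3.63 ± 0.12 in differentiated inputs.

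Opposite recovery of 2 arms was not limited to miR-199a. Among 18 hairpins with both arms in the eluate fit, 4 had arms with opposite signs over the MS2 control in both states, and among the 7 whose arms had at least 10 reads per group 3 did. The gap between the arms of miR-199a, 10.36 in differentiated and 10.67 in undifferentiated cells on the log2 scale, was the largest of the 18 in both states, where the median gap was 2.56 and 1.95. miR-199a was chosen by this contrast, so its place among the 18 is a description and no test. miR-140, known from cartilage, came next at 7.39 and 9.37, with its 5p arm at 6.60 and 8.73 and its 3p arm at −0.79 and −0.64. In miR-378a the 3p arm was the one above the control, and its gap was −5.81 and −5.63. The fourth was miR-30a, at −3.17 and −1.47, with its 5p arm at −1.04 and −1.25 and its 3p arm at 2.13 and 0.22. The sign of an arm depends on where the authors' scaling sets 0, but the gap between arms does not. With library totals the count was also 4, but these need not be the same hairpins. Library totals moved the median of the undifferentiated cells from 1.16 to −0.25, and the 3p arm of miR-30a stood at only 0.22 on the authors' scale.

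**Figure D3:**
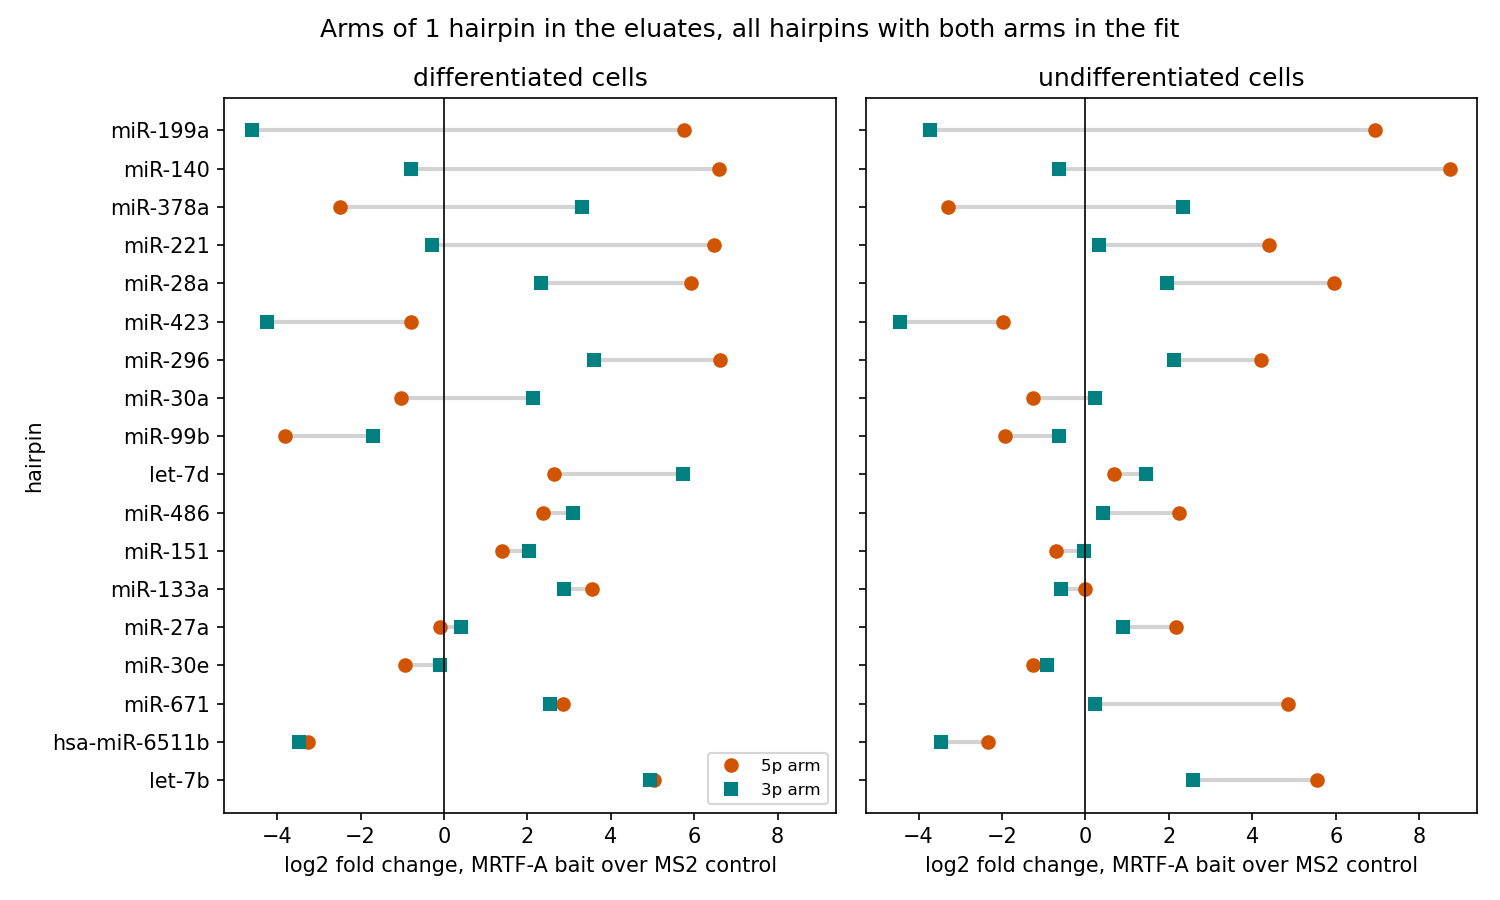
Log2 fold change of the 5p arm (circle) and the 3p arm (square) in MRTF-A over MS2 control eluates, for the 18 hairpins with both arms in the fit, in differentiated (left) and undifferentiated (right) cells. Hairpins are ordered by the smaller of their 2 gaps, largest on top. miR-199a, chosen for the opposite recovery of its arms, has the widest gap in both panels, 10.36 and 10.67.

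The Mrtfa 3′UTR was searched for seed matches. In the GENCODE vM21 annotation of GRCm38 it runs over 1004 bases at chr15:81012281-81013284 on the minus strand. The motifs, on the strand of the mRNA alone, were the 7-base matches ACACTGG for miR-199a-5p, ACTACTG for the 3p sequence and CCTGCTG for miR-214-3p, the 8-base matches that extend each by adenine at the 3′ end, and the 6-base matches made of the last 6 letters of each 7-base one. No 7-base or 8-base match was present for any of the 3 sequences. Of 10216 mouse 3′UTRs of at least that length, 10.8%, 5.85% and 16.2% held these 7-base motifs in their first 1004 bases. Of the 3 sequences, 2 had 1 match of 6 bases each, shown with 16 bases before and 4 after it and the match in capitals. That of miR-199a-5p starts at base 423 of the 3′UTR (chr15:81012857-81012862), and that of miR-214-3p at base 851 (chr15:81012429-81012434).
miR-199a-5p match: tggtgtatagtataacCACTGGtggc
miR-214-3p match: gtgggtcccaatgcatCTGCTGgggg
The 3p sequence of miR-199 had no 6-base match. Matches of 6 bases are frequent, and the same windows held those of the 3 sequences in 32.6%, 22.4% and 45.9% of 3′UTRs. Whether these letters are in the bait cannot be read from the labels, and a match is not a shown site.

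How the cells' own content changed with differentiation was tested in the inputs. miR-214-3p fell, and the miR-199 arms did not pass the test. miR-214-3p averaged 80.2 ± 8.61 CPM in differentiated and 328 ± 170.3 CPM in undifferentiated inputs (SD, n = 3 each), a log2 difference of −1.80 ± 0.38 (SE; limma, adjusted p = 0.00136). All 3 differentiated libraries lie below all 3 undifferentiated ones. It was the only member name of 4 to pass. Of 313 miRNAs tested, 46.3% were called lower and 16.0% higher, with a median of −0.64, so a lower level was common on the authors' scale. With library totals that median was −0.24 and with TMM factors of the 6 inputs −0.080, where 88 miRNAs were called higher and 90 lower. With library totals, TMM or RLE factors, edgeR and DESeq2 its difference was −1.17 to −1.33 with adjusted p of 0.00176 to 0.00983, and in a fit of all 18 libraries, whose spread includes the eluates, the adjusted p was 0.0506. The other arm of the hairpin, miR-214-5p, was also lower, at 121 ± 26.7 CPM in differentiated and 337 ± 124 CPM in undifferentiated inputs (−1.35 ± 0.38; limma, adjusted p = 0.0076). In bulk RNA, fewer cells that hold a miRNA and less of it per cell cannot be told apart.

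For miR-199 the direction in the inputs rested on the scaling. miR-199a-5p averaged 449 ± 65.2 CPM in differentiated and 724 ± 286 CPM in undifferentiated inputs, a log2 difference of −0.62 ± 0.34 (limma, adjusted p = 0.134), and with TMM factors of the 6 inputs it was 0.05. miR-199a-3p differed by −0.27 ± 0.33 (limma, adjusted p = 0.485) on the authors' scale and by 0.24 with library totals, and the miR-199b-3p name by −0.30 ± 0.32 (limma, adjusted p = 0.441) on the authors' scale and 0.21 with library totals. Ratios within the input libraries avoid this. The log2 ratio of miR-214-3p to miR-199a-3p was −6.11 ± 0.20 in differentiated and −4.47 ± 0.32 in undifferentiated inputs, a difference of −1.64, and that of miR-199a-5p to miR-199a-3p was −3.63 ± 0.12 and −3.28 ± 0.18, a difference of −0.36 (SD, n = 3 each). Neither pair of groups overlaps. Each has an exact 2-sided permutation p of 0.1, also after adjustment over the 2 ratios, which is the smallest that 3 against 3 libraries allow.

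In the MS2 control eluates, miR-199a-5p rose with differentiation. It averaged 835 ± 82.8 CPM in differentiated and 159 ± 34.2 CPM in undifferentiated control eluates (SD, n = 3 each), a log2 difference of 2.34 ± 0.31 (SE; limma, adjusted p = 0.000114). The counts behind it are small, 25, 22 and 34 reads in differentiated and 6, 11 and 7 reads in undifferentiated cells, and the groups do not overlap. It was the only member name of 4 to pass, where 16.0% of 169 miRNAs were called higher and 8.88% lower and the median was 0.10. Under other scalings, pseudocounts, filters and tests and with each library left out in turn, its difference was 2.09 to 2.49 and passed. miR-199a-3p was at 1.22 ± 0.43 (limma, adjusted p = 0.0532), the miR-199b-3p name at 1.11 ± 0.41 (limma, adjusted p = 0.0653), and miR-214-3p, with 1 read against 5, at −1.07 ± 0.77 (limma, adjusted p = 0.331). Because miR-214-3p passed the filter through the MRTF-A eluates alone, its test in the control eluates decides nothing. The human-named share of the control libraries varied within both states (0.0900% to 0.930% in differentiated and 0.111% to 0.765% in undifferentiated cells), and with only the control libraries low or only those higher in it, miR-199a-5p differed by 2.64 and by 1.95. Each of those fits has 1 state with a single control library, which is assumed to vary like the other groups, so neither speaks to stability.

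In the MRTF-A eluates the same miRNA was higher in differentiated cells on the authors' scale, at 45812 ± 1160.3 CPM in differentiated and 21666 ± 7778 CPM in undifferentiated eluates (SD, n = 3 each). The log2 difference was 1.16 ± 0.31 (SE; limma, adjusted p = 0.0106), where 23.7% of 169 miRNAs were called higher and 14.8% lower and the median was 0.33. This call was lost with RLE factors (0.74, adjusted p = 0.102), with edgeR (0.51, adjusted p = 0.259) and DESeq2 (0.55, adjusted p = 0.197) and, at the same size, with no filter on low counts (limma, adjusted p = 0.0928). miR-199a-3p, at 0.35 ± 0.43 (limma, adjusted p = 0.586), miR-199b-3p, at 0.09 ± 0.41 (limma, adjusted p = 0.894), and miR-214-3p, at −0.18 ± 0.77 (limma, adjusted p = 0.893), did not pass. The ratio of miR-199a-5p to its 3p arm was 7.13 ± 0.29 in differentiated and 6.34 ± 0.35 in undifferentiated MRTF-A eluates (log2, SD, n = 3 each), without overlap.

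Whether recovery with the bait over the control differed between the states was tested as an interaction. For miR-199a-5p it was −1.18 ± 0.43 (SE; limma, adjusted p = 0.0841), that is, a smaller excess over the control in differentiated cells, which did not pass. It did pass with RLE factors (−1.57), with DESeq2 (−1.74) and without undifferentiated MRTF-A library A (−1.53, limma, adjusted p = 0.011). miR-199a-3p was at −0.88 ± 0.60 (limma, adjusted p = 0.390), the miR-199b-3p name at −1.03 ± 0.58 (limma, adjusted p = 0.265) and miR-214-3p at 0.90 ± 1.09 (limma, adjusted p = 0.616). The value of miR-214-3p rests on its few control reads and decides nothing for that name. With limma 0 of the 4 member names were called, 1 had an unadjusted p under 0.05, and edgeR called 0 and DESeq2 1, where limma called 8.28% of 169 miRNAs higher and 4.73% lower.

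The same question was asked of each eluate over input, in the fit of all 18 libraries. The excess of the MRTF-A eluates over input differed between the states for 1 of the 4 member names, miR-199a-5p, at 1.78 ± 0.46 (SE; limma, adjusted p = 0.0138), where 16.7% of 305 miRNAs were called higher and 3.61% lower and the median of all was 0.89. That of the MS2 control eluates over input also differed for miR-199a-5p alone of the 4, at 2.96 ± 0.46 (limma, adjusted p = 0.00116), where 9.51% of 305 miRNAs were called higher and 0.656% lower and the median was 0.64. Both comparisons share the inputs, and both tests were added after the data were seen. The first was lost with library totals (1.52, adjusted p = 0.0582), RLE factors (0.43), edgeR (0.35), DESeq2 (0.41) and no filter (adjusted p = 0.0673), and the second with edgeR (1.80, adjusted p = 0.0858).

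**Figure D4:**
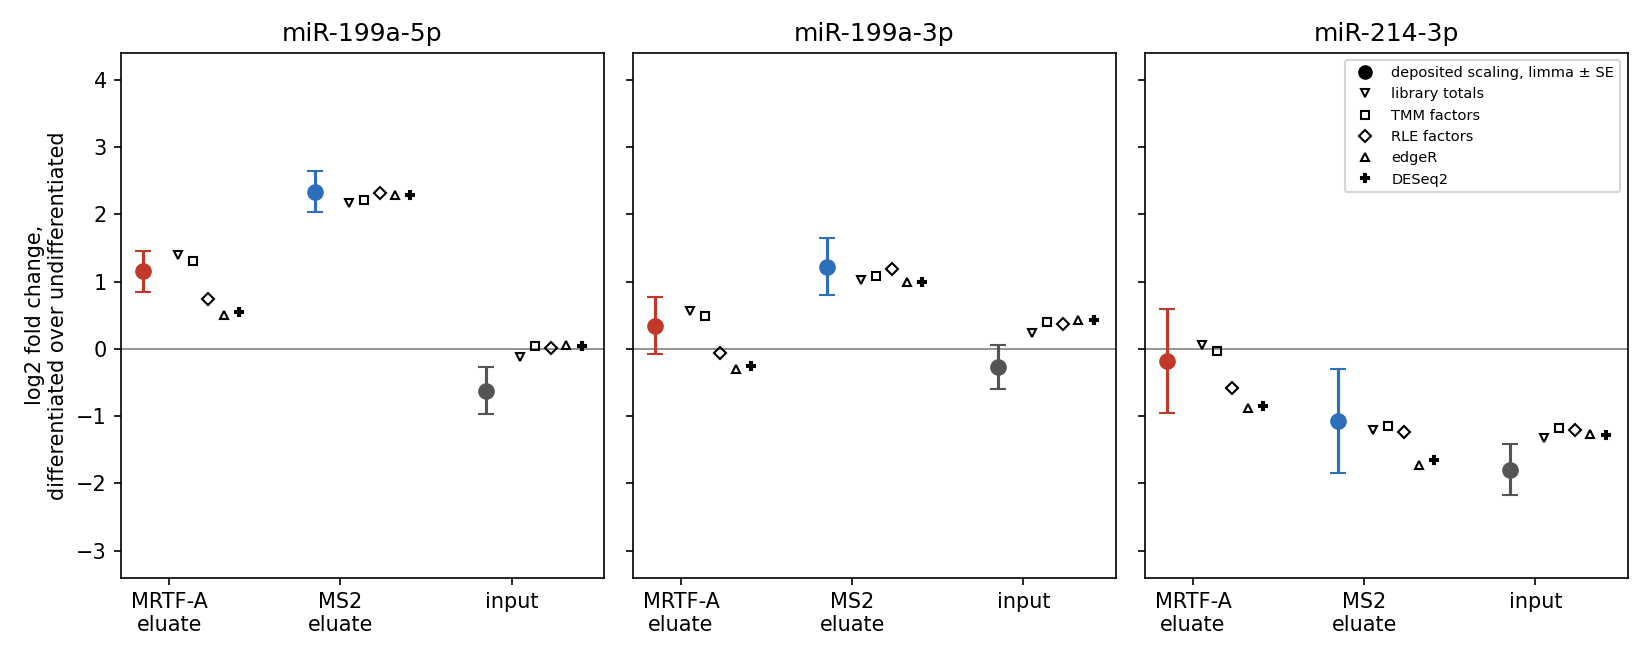
Log2 fold change of differentiated over undifferentiated cells for miR-199a-5p, miR-199a-3p and miR-214-3p in MRTF-A eluates, MS2 control eluates and inputs. Coloured points with bars are limma values ± SE on the authors' scaling, and open black symbols are the same difference under other scalings and tests. Of the values shown, those of miR-214-3p in the inputs lie between −1.17 and −1.80 and those of miR-199a-5p in the MS2 eluates near 2.34, while the input values of miR-199a-5p and miR-199a-3p cross 0.

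The profile of each sequence over the 18 libraries was set beside those of 301 other miRNAs by Pearson correlation of log2(CPM + 10). The 18 points fall into 6 groups and share the scaling, so the coefficients describe likeness of profile. miR-199a-5p was most like miR-34c-5p (r = 0.968), miR-504-3p (0.963) and miR-130a-3p (0.962). miR-34c-5p averaged 117939 ± 30902 and 157036 ± 25184 CPM in the differentiated and undifferentiated MRTF-A eluates, 1424 ± 292 and 796 ± 352 CPM in the MS2 control eluates, and 1107 ± 270.1 and 1659 ± 380.2 CPM in the inputs (SD, n = 3 each). The nearest to miR-199a-3p were miR-99b-5p (r = 0.889), miR-6241 (0.872) and miR-139-5p (0.86). miR-214-3p was nearest to miR-296-5p (r = 0.939), miR-34a-5p (0.935) and let-7i-5p (0.933). Between the members, r was −0.859 for the 2 arms of miR-199a and 0.793 for miR-199a-5p with miR-214-3p.

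A list of 18 miRNAs known from mesenchymal cells and fibroblasts and a list of 24 known from muscle differentiation show what moved around these members. Of the mesenchymal list, 10 of 18 fell and 1 rose in differentiated inputs, where 46.3% of all 313 tested miRNAs were called lower and 16.0% higher, with a median log2 difference of −0.94 against −0.64 over all tested. Among those that fell were miR-222-3p (−2.70 ± 0.36), miR-21a-5p (−1.91 ± 0.39) and miR-10a-5p (−0.83 ± 0.31), and miR-22-3p rose (0.94 ± 0.33). miR-214-3p, at −1.80, lies within that range, while neither miR-199 arm passed. Of the muscle list, 12 of 23 tested rose and 5 fell in the inputs, with a median of 0.89. The lists are not separate, since miR-24-3p, miR-29b-3p, miR-29c-3p, miR-125b-5p, miR-221-3p and miR-222-3p stand in both. Of these, miR-29b-3p, miR-125b-5p, miR-221-3p and miR-222-3p fell in the inputs and are counted in both lists. In the MRTF-A eluates, where 23.7% of all 169 were called higher and 14.8% lower, 2 of 14 tested mesenchymal miRNAs rose and 3 fell (median −0.45, against 0.33 over all), and 11 of 14 muscle miRNAs rose (median 3.34). In the MS2 control eluates, where 16.0% of 169 were called higher, 2 of 14 and 10 of 14 rose, with medians of 0.36 and 2.37 against 0.10. For the interaction, where 8.28% of 169 were called higher and 4.73% lower, 1 of 14 mesenchymal miRNAs was higher and 1 lower, and 1 of 14 muscle miRNAs was higher. Only 14 of the 18 and 14 of the 24 names entered the eluate fit. A name can pass its filter through the group where it is high, and the lists were chosen with earlier results known. The counts in the eluates are therefore a description and no support.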

How the data were processed

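Small RNA of C2C12 cells was sequenced in 50-base reads. Per the submitters' processing notes, edgeR 3.18.1, featureCounts 1.4.6, Bowtie2 2.0.13 and cutadapt 1.4.2 were used with GRCm38/mm10. How a read with several matching miRNAs was counted is not given in the sources read for this work. The deposited signal is CPM scaled by the authors. Every value was a whole multiple of its library's smallest step, from which whole reads were recovered (all within 0.01 read). The log2 fold changes, p-values and q-values that the authors deposited beside the signal were not used here.

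Differences were fitted with limma 3.58.1 (R 4.3.3, trend) on log2(CPM + 10), with a pseudocount of 10, filterByExpr on recovered reads and Benjamini-Hochberg adjustment over all miRNAs of a fit, at a threshold of 0.05. The 6 inputs, the 12 eluates, or all 18 libraries for eluate against input, entered 1 fit each. A log2 fold change on this scale understates low miRNAs. Recovered reads were also run through DESeq2 1.42.0 and edgeR 4.0.16. Python 3.11.15 with scipy 1.17.1, pandas 2.3.3, matplotlib 3.10.9 and numpy 2.4.6 gave ratios, intervals and figures. The fits were tested on simulated data. Members and lists were chosen with earlier results of these data known. Names in the text are the members, other names of their hairpins, the 3 nearest profiles to each sequence, hairpins with opposite arms, and list members for their range or because both lists hold them. Replicate libraries of every group differed by more than sampling noise (chi-square per degree of freedom at least 3.9).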

Additional observations from a re-analysis of the deposited data

Results flagged for a closer look

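The recovery of miR-199a-5p over input differed between the states in both kinds of eluate on the authors' scaling. For the MS2 control, the log2 difference from input was 0.89 ± 0.33 in differentiated and −2.07 ± 0.33 in undifferentiated cells, and the difference of these, tested as an interaction in the fit of all 18 libraries, was 2.96 ± 0.46 (SE; limma, adjusted p = 0.00116). It was 1.80 to 3.17 under the alternatives tried and did not pass with edgeR (1.80, adjusted p = 0.0858). For the MRTF-A bait the same difference was 1.78 ± 0.46 (limma, adjusted p = 0.0138), with 6.65 ± 0.33 over input in differentiated and 4.88 ± 0.33 in undifferentiated cells, and it was 0.35 to 1.99 under the alternatives, not passing with library totals, RLE factors, edgeR, DESeq2 or no filter. Both tests were added after the data were seen and share the input libraries. In the MS2 control the undifferentiated libraries held 6, 11 and 7 reads of miR-199a-5p.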

How the results depend on the processing

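For miR-199a-5p, miR-199a-3p and miR-214-3p in the comparisons of states and the interaction of bait over control, the settings tried changed no call or sign apart from those given here. In the inputs, miR-199a-5p changed sign with TMM (0.049), RLE (0.018), edgeR (0.055) and DESeq2 (0.050), miR-199a-3p with library totals (0.24), TMM (0.41), RLE (0.37), edgeR (0.43) and DESeq2 (0.42), and miR-199b-3p likewise (0.21, 0.38, 0.35, 0.41 and 0.40). miR-199a-5p passed with library totals without miR-21a-5p (−0.70); leaving out single inputs it ranged from −0.83 to −0.32 and passed without undifferentiated library B. miR-214-3p failed in the fit of all 18 libraries (−1.80) only. In the MRTF-A eluates, miR-199a-5p failed with RLE (0.74), no filter (1.16), edgeR (0.51) and DESeq2 (0.55). miR-199a-3p changed sign with RLE (−0.055), edgeR (−0.30) and DESeq2 (−0.25), and miR-199b-3p with RLE (−0.32), edgeR (−0.54), DESeq2 (−0.50) and without undifferentiated library B (−0.14; range without single libraries up to 0.39). miR-214-3p changed sign with library totals (0.064), and ranged from −0.66 to 0.084 without single libraries. In the MS2 eluates, miR-199a-3p passed with a pseudocount of 50 (1.21) and in the fit of all 18 libraries (1.22), and without single libraries ranged from 0.75 to 1.56, passing without undifferentiated library A. miR-214-3p was 0.80 with only the control libraries low in human-named reads and −2.92, past the threshold, with only those higher in them, which compares 0 and 0 reads with 2 reads. Each fit on such a subset leaves 1 state with a single control library, assumed to vary like the other groups, so it does not bear on stability. The interaction of miR-199a-5p passed with RLE (−1.57) and DESeq2 (−1.74) and ranged from −1.53 to −0.99 without single libraries; that of miR-214-3p was −0.97 with the low-human controls.

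The described values of bait over control moved in size and kept their sign. In differentiated cells miR-199a-5p was 4.32 with library totals, 5.10 with RLE, 4.89 with edgeR and 4.98 with DESeq2, miR-199a-3p was −6.02, −5.24, −5.52 and −5.43 with the same settings, and miR-214-3p was 4.89 with library totals, 8.34 and 4.16 with pseudocounts of 1 and 50, and 4.74 with the low-human controls. In undifferentiated cells library totals gave 5.09, −5.56 and 3.62 for the 3 sequences, pseudocounts of 1 and 50 gave 6.37 and 3.88 for miR-214-3p, and the controls higher in human-named reads gave −4.39 for miR-199a-3p and 3.89 for miR-214-3p. MS2 over input in undifferentiated cells changed sign for miR-199a-3p with library totals (0.032), RLE (0.99), edgeR (0.65) and DESeq2 (1.08), and for miR-199b-3p with the last 3 (0.90, 0.56 and 0.98). Among the added interactions, MRTF-A over input changed sign with RLE, edgeR and DESeq2 for miR-199a-3p (−0.73, −0.83 and −0.80) and miR-199b-3p (−0.97, −1.05 and −1.02), and MS2 over input for miR-214-3p with these (−0.62, −0.92 and −0.58), with a pseudocount of 1 (−0.24) and without undifferentiated MS2 library C (−0.13; range without single libraries up to 1.33). Counting 6-base matches gave 1 site in place of 0 for miR-199a-5p and for miR-214-3p. With at least 10 reads per group, 3 of 7 hairpins had opposite arms. Counts of called miRNAs moved too, with 50 higher and 145 lower in the inputs (27 to 89 and 75 to 160 over all settings), 40 and 25 in the MRTF-A eluates (30 to 60 and 13 to 43), 27 and 15 in the MS2 eluates (17 to 42 and 10 to 25), 14 and 8 for the interaction (0 to 28 and 0 to 22), 51 and 11 for the MRTF-A eluate over input between states (3 to 77 and 2 to 33) and 29 and 2 for the MS2 eluate (0 to 49 and 1 to 11). The cause of these changes was not tested. The controls based on the human-named share, the totals without miR-21a-5p, the summed 3p names and the interactions over input were chosen after seeing the data.

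In the comparisons of states, the correlations of libraries with the same column letter ran from −0.31 to 0.19 and were not over 0.1 for all 3 letters in any of them. They were over 0.1 for all 3 between differentiated MRTF-A eluates and the MS2 controls (0.104 to 0.173) or inputs (0.133 to 0.402). These comparisons are described and not tested by themselves, but they form part of the tested interactions. The labels do not pair libraries by letter. A replicate block on the letters left the difference of miR-214-3p in the inputs at −1.80 (adjusted p = 0.000775) and changed no call. Depth limits miR-214-3p and miR-199b-5p, with 0 to 3 reads per MS2 control library.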
